A study of Cavia porcellus with 34 samples.

Results

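Antioxidant enzymes were examined in RNA from the hypothalamic paraventricular nucleus (PVN), the nucleus whose neurons drive the hypothalamic-pituitary-adrenal axis. The set was chosen by name and holds 10 genes, SOD1, SOD2, CAT, GPX1, GPX4, PRDX1, PRDX2, PRDX5, TXN and their regulator NFE2L2. Of these, 7 had values among 12592 gene symbols: 5 of 12114 genes in F1 (SOD1, SOD2, CAT, PRDX1 and NFE2L2), 7 of 12207 in F2 and 7 of 12068 in F3. PRDX2 and PRDX5 were not analysed here in F1, and GPX1, GPX4 and TXN were not analysed here in any generation. All members with values passed the filter on low genes, a mean of at least 10 in a generation.

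The animals were juvenile female Dunkin-Hartley guinea pigs of the paternal line, killed on postnatal day 40. Pregnant F0 females had received repeated courses of saline (Veh, labelled Control) or of the synthetic glucocorticoid betamethasone (sGC, labelled Beta). F1 animals were exposed in utero, and F2 and F3 animals descended from F1 and F2 males bred to untreated females. There were 5 Veh and 5 sGC animals in each of F1 and F2, and 6 and 6 in F3, of which 2 sGC animals came from a second sequencing batch. The punch took the anteromedial hypothalamus, so regions next to the PVN may be included. Defining transcripts of the nucleus (AVP, OXT, CRH, TRH, SIM1 and OTP) were present in all 3 generations.

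Superoxide dismutases turn superoxide, a by-product of respiration, into hydrogen peroxide, which catalase, peroxiredoxins and glutathione peroxidases then remove. Thioredoxin returns oxidised peroxiredoxins to their active form with electrons from NADPH. NFE2L2 (NRF2) is held in the cytoplasm and degraded through KEAP1 until oxidants release it, after which it switches on many antioxidant genes. That control acts largely on the protein, which RNA does not measure.

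The deposited values are normalized counts, which the authors corrected for unwanted variation and rounded, in 1 table per generation, and levels are therefore compared only within a generation. Their sum per animal ran from 15.57 to 21.94 M (mega) in F1, from 15.65 to 19.44 M in F2 and from 18.69 to 18.98 M in F3. Fold changes were tested with limma on log2(value + 1), with a pseudocount of 1, on this deposited scale (a scale that makes changes of weakly expressed genes look smaller), with adjustment over all genes (Benjamini-Hochberg, threshold 0.05). Each was computed again after dividing each animal by its median-of-ratios size factor, which brings the typical gene to 1 level in all animals. These factors spanned 0.849 to 1.20 in F1 Veh and 0.908 to 1.07 in F1 sGC. Over all genes the median was 0.07 in F1, -0.08 in F2 and -0.00 in F3 on the deposited scale, and about 0.00 with size factors. Close paralogs such as PRDX1 and PRDX2 can share reads, and how such reads were counted is not given in the sources used here.

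None of the members with values passed the threshold in any generation on the deposited scale: 0 of 5 in F1, 0 of 7 in F2 and 0 of 7 in F3 (limma). Over all genes tested, 0.657% passed in F1 (78 of 11874, 72 higher and 6 lower in sGC), 0% in F2 (0 of 11965) and 0.0506% in F3 (6 of 11866). Without adjustment, 1 member had a p-value under 0.05, PRDX2 in F2, whereas 13.6% of all genes did in F1, 11.7% in F2 and 13.1% in F3. With size factors SOD1 and SOD2 passed in F1, both lower in sGC, beside 17.3% of all genes (2058, of which 1006 were higher and 1052 lower), and no member passed in F2 or F3, beside 0% and 0.0421% of all genes. Veh and sGC values overlapped for every member in every generation on the deposited scale, whereas the groups did not overlap for 2.04% of all genes in F1, 2.4% in F2 and 1.21% in F3.

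**Figure D1:**
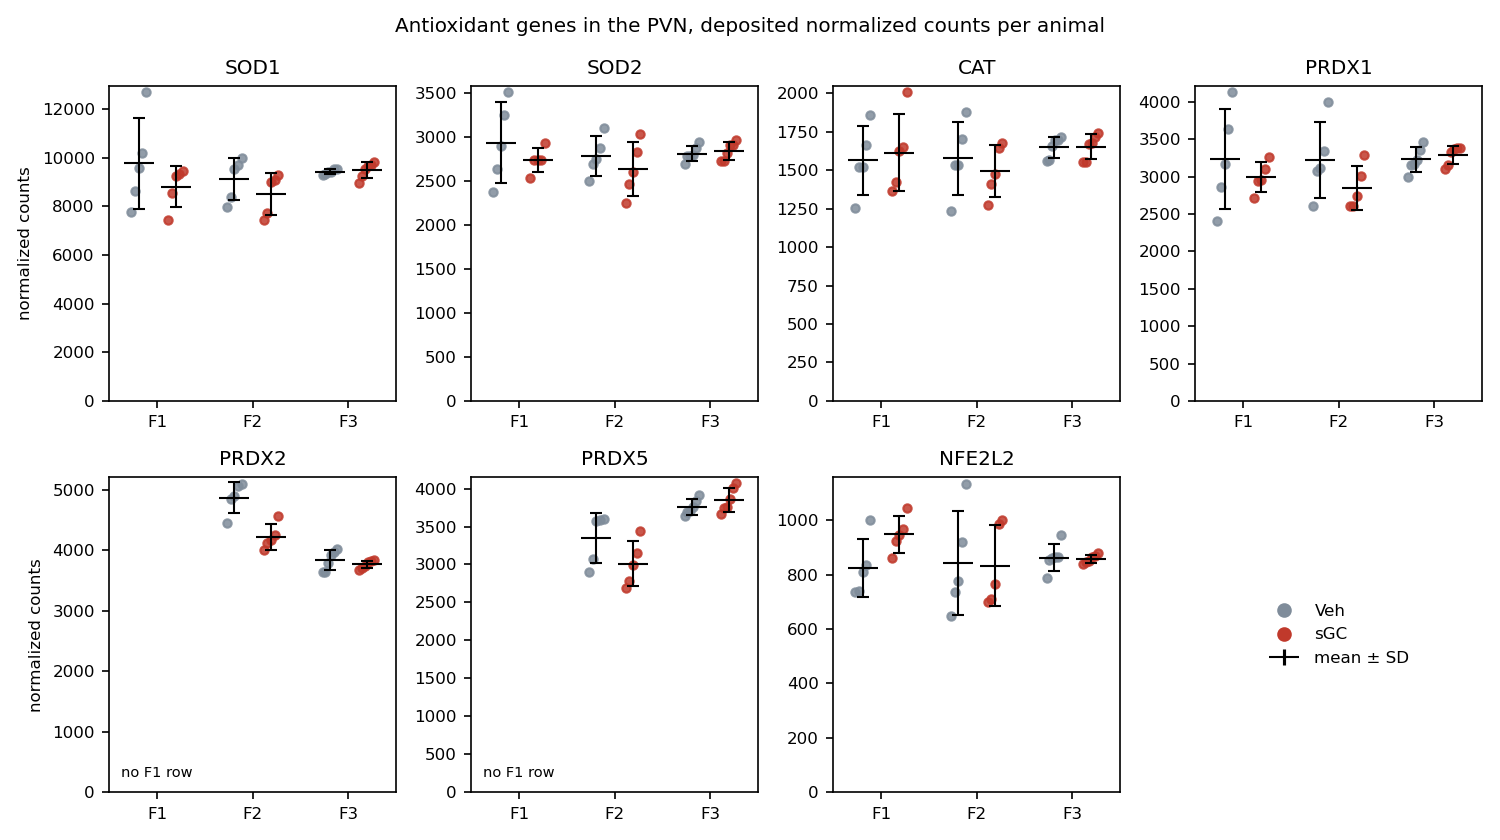
Deposited normalized counts (vertical axis, from 0) of the 7 measured antioxidant genes, 1 point per animal, by generation and treatment, with mean ± SD. Veh and sGC animals overlap in every panel and generation, and the F3 animals lie closer together than those of F1 and F2 in most panels, SOD1 spanning 1.71-fold in F1 and 1.10-fold in F3.

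SOD1, the copper and zinc dismutase of the cytosol, was the member with the clearest F1 difference once samples were scaled. The 5 F1 Veh animals had 7747, 8626, 9564, 10210 and 12683 normalized counts and the 5 sGC animals 7430, 8538, 9236, 9327 and 9468. The groups overlapped, with the lowest animal in sGC and the highest in Veh, and all 5 sGC animals lay below the Veh mean. The means were 9766 ± 1879 (SD, n = 5) and 8800 ± 846 (SD, n = 5), a log2 fold difference of -0.14 (SE 0.13, limma, adjusted p = 0.726), and the 95% interval of the change ran from -24.7% to 9.98%.

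Much of the spread in SOD1 followed the scale of the whole sample. Across the 10 F1 animals, all members measured rose with the size factor, with Pearson correlations from 0.74 (CAT) to 0.82 (PRDX1). SOD1 had 0.81, and the size factor is computed from all genes including SOD1. Divided by the size factor, the Veh animals had 8976, 9705, 9880, 10162 and 10549 normalized counts and the sGC animals 8177, 8186, 8705, 8795 and 9057. The groups then overlapped only in that 1 Veh animal, at 8976, lay below the highest sGC animal. The change was -12.8%, with a 95% interval from -19.1% to -6.06% (log2 fold difference -0.20, standard error 0.05, limma, adjusted p = 0.021). Of 10 fits that each left out 1 animal with size factors, SOD1 passed in 9, with adjusted p-values from 0.00932 to 0.0587 (limma), the last without Veh replicate SGM11. It also passed with samples scaled to their totals (limma, adjusted p = 0.0233).

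SOD2, the manganese dismutase of the mitochondrial matrix, had the same direction. F1 Veh animals had 2376, 2642, 2905, 3252 and 3521 normalized counts and sGC animals 2541, 2737, 2742, 2743 and 2935. The sGC animals lay within the range of Veh, and the log2 fold difference was -0.09 (SE 0.12, limma, adjusted p = 0.819). With size factors the means were 2977 ± 145 (SD, n = 5) in Veh animals against 2680 ± 117 (SD, n = 5) in sGC, a change of -9.96% with a 95% interval from -15.8% to -3.69% (limma, adjusted p = 0.0388). This call was less stable than that of SOD1. SOD2 passed in 3 of 10 fits that left out 1 animal, without Veh replicate SGM15, sGC replicate SGM4 or sGC replicate SGM20, and adjusted p-values ran from 0.0186 to 0.0972 (limma). It did not pass with samples scaled to their totals (limma, adjusted p = 0.0623), nor with size factors and the direction of variation that the authors' normalization removed as a covariate (limma, adjusted p = 0.0673), where SOD1 did (limma, adjusted p = 0.0403).

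**Figure D2:**
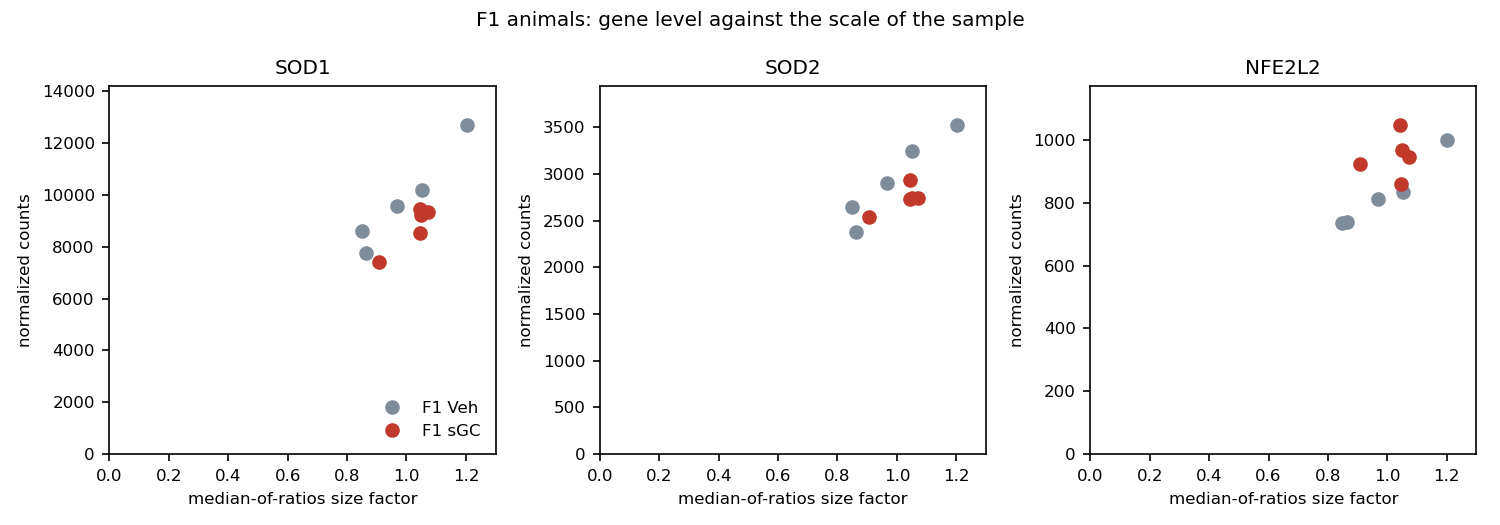
Deposited normalized counts of SOD1, SOD2 and NFE2L2 (vertical axes, from 0) against the median-of-ratios size factor (horizontal axis, no unit) in the 10 F1 animals. SOD1 rises with the size factor (Pearson correlation 0.81), most sGC animals lie below Veh animals of like size factor for SOD1, and NFE2L2 lies the other way.

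Among the enzymes that remove hydrogen peroxide, neither of the pair measured in F1 passed. CAT, the peroxisomal catalase, ranged from 1254 to 1859 normalized counts in Veh and from 1367 to 2009 in sGC, a log2 fold difference of 0.05 on the deposited scale (limma, adjusted p = 0.917) and -0.02 with size factors, so its direction depended on the scaling. PRDX1, a cytosolic peroxiredoxin, ranged from 2410 to 4127 in Veh and from 2717 to 3257 in sGC. Its log2 fold difference was -0.09 (SE 0.13, limma, adjusted p = 0.829), and -0.16 with size factors (limma, adjusted p = 0.0975). PRDX1 passed with size factors when Veh replicate SGM15 was left out (limma, adjusted p = 0.00987) and in none of the other 9 such fits.

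NFE2L2 had the opposite sign to the dismutases in F1. Veh animals had 737, 740, 811, 835 and 999 normalized counts and sGC animals 859, 924, 946, 967 and 1046. All 5 sGC animals lay above the Veh mean, and the groups overlapped through 1 Veh animal at 999. The means were 824 ± 107 (SD, n = 5) and 948 ± 67.9 (SD, n = 5), a log2 fold difference of 0.21 (SE 0.12, limma, adjusted p = 0.479). With size factors it was 0.15 (limma, adjusted p = 0.124), a change of 10.6% with an unadjusted 95% interval from 0.743% to 21.4%. NFE2L2 did not pass on either scale with all animals, and passed with size factors only without sGC replicate SGM12 (limma, adjusted p = 0.0391).

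The ratio of 2 members within an animal does not depend on how the samples are scaled. Of the 10 F1 pairs, 1 had groups without overlap, NFE2L2 relative to SOD2, which was singled out after the values were seen and was not tested. NFE2L2 per 100 SOD2 counts ran from 25.7 to 31.1 in Veh and from 31.4 to 36.4 in sGC. When every gene tested in F1 was divided by SOD2 in this way, 16.3% lay higher in sGC without overlap. NFE2L2 per 100 SOD1 counts overlapped, at 7.88 to 9.55 in Veh and 9.07 to 12.4 in sGC. In F2 and F3, 0 of 21 pairs each were without overlap.

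Cell type markers moved beside the F1 values, and their part in the result was not tested. Of 6 endothelial markers 6 were higher in sGC, with a summed level of 258 to 305 per M (mega) counts in Veh and 260 to 477 in sGC, and of 6 microglial markers 5 were higher, at 200 to 211 against 200 to 355. All 8 oligodendrocyte markers were higher in sGC, at 1774 to 3144 against 1987 to 5310, and 8 of 9 PVN markers were lower, at 6190 to 11700 against 1276 to 10181. Astrocyte markers were higher in 7 of 8, mural cell markers in 2 of 2, neuronal markers in 4 of 7 and ependymal markers in 2 of 5. These directions are on the deposited scale, where the median of all genes in F1 was 0.07 higher in sGC. None of these markers passed the threshold on the deposited scale, whereas 1 microglial marker (higher in sGC), 1 PVN marker (lower) and 1 of 7 neuronal markers (lower) did with size factors. The summed neuronal level overlapped, at 4549 to 5131 in Veh and 4188 to 5354 in sGC. In such tissue, fewer cells of a type and less RNA per cell cannot be told apart.

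In F2 the deposited values of all 7 members were lower on average in sGC, as were those of 75.5% of all genes. PRDX2, an abundant neuronal peroxiredoxin of the cytosol, had the largest difference. Veh animals had 4450, 4846, 4898, 5059 and 5099 normalized counts and sGC animals 4004, 4114, 4177, 4256 and 4562. Every sGC animal lay below the Veh mean, and 1 sGC animal, at 4562, lay above the lowest Veh animal. The means were 4870 ± 258 (SD, n = 5) and 4223 ± 211 (SD, n = 5), a log2 fold difference of -0.21 (SE 0.06, limma, unadjusted p = 0.00664, adjusted p = 0.247). With size factors the groups did not overlap, at 4568 to 4948 in Veh and 4111 to 4564 in sGC, as in 1.91% of all genes lower in sGC, by a margin of a few counts. The change was then -8.72%, with an unadjusted 95% interval from -14.3% to -2.80% (limma, adjusted p = 0.224), and PRDX2 passed in no fit that left out 1 animal.

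None of the other F2 members passed the threshold, and SOD1, SOD2, CAT, PRDX1 and NFE2L2 differed by less than the spread between animals. PRDX5 differed by slightly more, by 0.153 against a within-group SD of 0.144 on the log2 scale. PRDX5, a peroxiredoxin found in mitochondria and peroxisomes, ranged from 2903 to 3605 normalized counts in Veh and from 2694 to 3437 in sGC, with a log2 fold difference of -0.15 (limma, adjusted p = 0.525), and -0.08 with size factors. PRDX1 ranged from 2601 to 3996 and from 2603 to 3288 (log2 fold difference -0.17, limma, adjusted p = 0.552). SOD1 ranged from 7987 to 9977 and from 7432 to 9286 (log2 fold difference -0.10, limma, adjusted p = 0.67), and with size factors its change was -1.85% with a 95% interval from -8.90% to 5.75%. For SOD2 the ranges were 2499 to 3108 and 2257 to 3037, and for CAT 1237 to 1879 and 1271 to 1680, with log2 fold differences of -0.08 and -0.07, and -0.01 and 0.00 with size factors. NFE2L2 was the most variable member, from 646 to 1132 in Veh and from 701 to 1000 in sGC, with a log2 fold difference of -0.01 that became 0.07 with size factors (limma, adjusted p = 0.989 and 0.902). Its 95% interval on the deposited scale, from -20.7% to 24.8%, does not exclude a change as large as that of F1.

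The oligodendrocyte markers stood apart in F2. All 9 were lower in sGC, and their summed level did not overlap, at 7274 to 13841 per M in Veh and 4452 to 6302 in sGC, though 0 of 9 passed the threshold. All 5 ependymal markers were higher in sGC, with a summed level of 285 to 403 per M in Veh and 374 to 510 in sGC. Neuronal markers were lower in 7 of 7, with a median log2 fold difference of -0.20, and -0.13 with size factors, and summed levels of 4086 to 5680 per M in Veh and 4332 to 5225 in sGC. Endothelial markers were lower in 6 of 6 (267 to 423 against 249 to 299), and PVN markers higher in 8 of 9 (3254 to 5998 against 4646 to 11379), with 0 past the threshold in either list or among the neuronal markers on either scale. The part of all these markers in the values of PRDX2 and the other members was not tested.

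In F3 the antioxidant genes lay close together in both groups, and no member differed by as much as the spread between animals. SOD1 had a lowest, median and highest value of 9307, 9422 and 9540 normalized counts in Veh and of 8953, 9581 and 9832 in sGC. The Veh animals lay inside the range of sGC, with a log2 fold difference of 0.01 and a standard error of 0.02 (limma, adjusted p = 0.925). NFE2L2 had 786, 861 and 946 in Veh and 838, 858 and 878 in sGC, so that here the sGC animals lay inside the range of Veh (log2 fold difference -0.01, limma, adjusted p = 0.967). The corresponding values were 2691, 2798 and 2942 against 2726, 2866 and 2974 for SOD2, and 1558, 1676 and 1716 against 1552, 1675 and 1744 for CAT.

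The F3 peroxiredoxins likewise overlapped. PRDX1 had 3000, 3198 and 3467 in Veh and 3105, 3353 and 3385 in sGC, and PRDX2 had 3638, 3863 and 4022 against 3680, 3771 and 3847. PRDX5 had 3637, 3727 and 3910 against 3668, 3810 and 4076, the largest F3 difference among members, with a log2 fold difference of 0.04 (limma, adjusted p = 0.643). The 95% intervals ran from -2.89% to 4.19% for SOD1, from -3.09% to 5.49% for SOD2, from -5.12% to 5.80% for CAT, and from -1.77% to 7.04% for PRDX5. They make no allowance for batch or for the directions that the normalization removed. With those directions as covariates the standard error of SOD1 was 0.0274, against 0.0237 without. An F1 change in SOD1 of the size seen with size factors, -12.8%, lies outside this F3 interval. With the 10 animals of the first sequencing batch alone, or with batch as a covariate, SOD1, SOD2 and CAT changed sign, to log2 fold differences of -0.01, -0.01 and -0.02. Every second-batch animal used was sGC, so both settings give the same estimates and are not separate checks. Neuronal markers in F3 were lower in sGC in 7 of 7, at summed levels of 4556 to 5047 per M in Veh and 4369 to 4655 in sGC. Ependymal markers were higher in 5 of 5, oligodendrocyte markers in 7 of 8, microglial markers in 5 of 6 and mural cell markers in 4 of 5. Endothelial markers were higher in 4 of 6, astrocyte markers in 4 of 8 and PVN markers in 3 of 9. None of these passed on either scale, and their part was not tested.

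**Figure D3:**
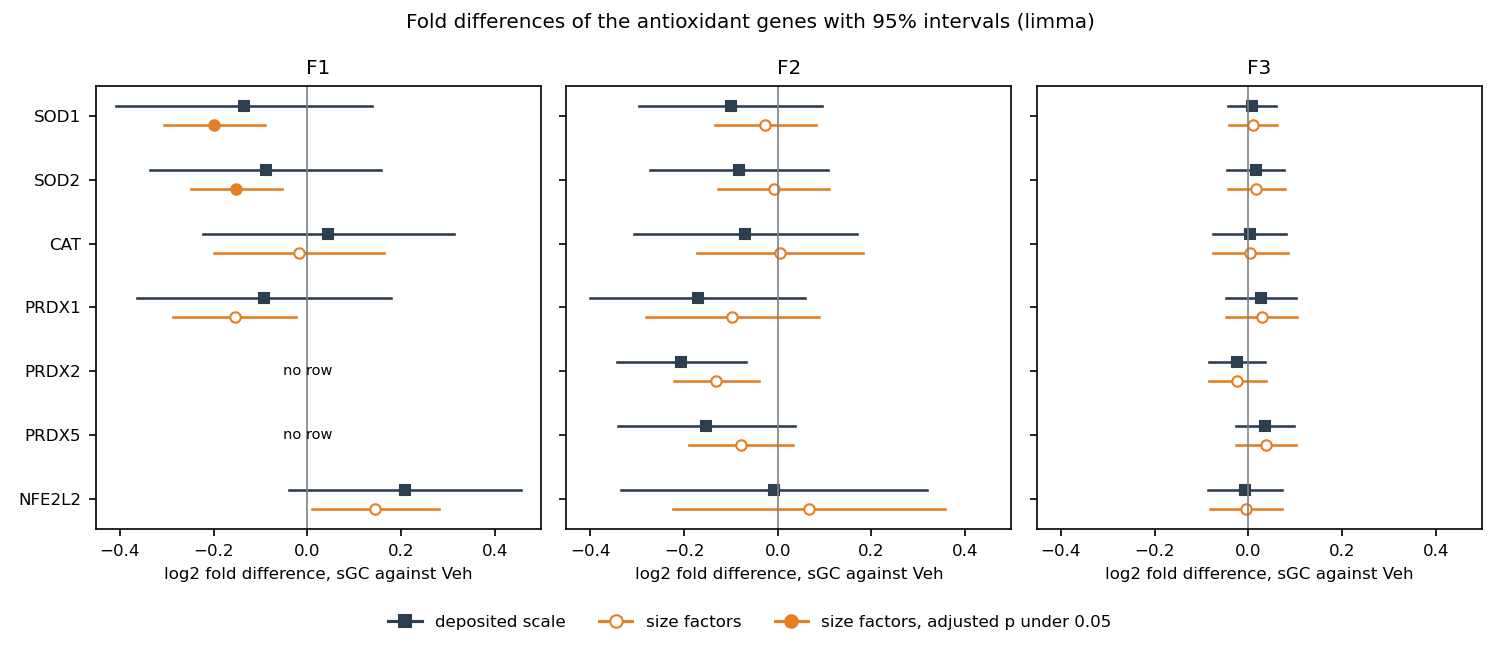
Log2 fold difference of sGC against Veh (horizontal axis) with its unadjusted 95% interval for each member in F1, F2 and F3, on the deposited scale (squares) and with size factors (circles, filled where the limma adjusted p is under 0.05). The 2 filled circles are SOD1 and SOD2 in F1, at -0.20 and -0.15, and the F3 intervals are the narrowest.

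The precision behind these comparisons differed between generations. The spread of SOD1 between animals of 1 group was 0.216 on the log2 scale in F1, 0.145 in F2 and 0.0370 in F3, and with size factors 0.0770, 0.0667 and 0.0364. F3 libraries had nearly equal totals, and their normalization had removed 2 directions of variation, against 1 in F1 and 1 in F2, counted from the values themselves. In simulated data with 200 genes changed by a log2 fold difference of 0.25, near the largest member differences, the test recovered 0% in F1 (11865 genes) and 0% in F2 (11956 genes) on the deposited scale and 55.5% in F3 (11860 genes), and with size factors it recovered 15.5% in F1 and 15.5% in F2. In this simulation, differences near the largest seen among the members were thus mostly not recovered in F1 and F2. The recovery is a rate over all changed genes, not that of a given member. In the F1 data, SOD1 and SOD2 passed with size factors at smaller differences, -0.20 and -0.15, where 17.3% of all genes passed.

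Whether the sGC difference itself changed between generations was tested for the 5 members measured in all 3, in 1 limma fit over 11429 genes. For each gene this fit used 1 estimate of the spread for all generations. With size factors the SOD1 spread was 0.0770 in F1, 0.0667 in F2 and 0.0364 in F3. The F1 minus F2 test thus also drew on the smaller spread of F3 animals. No member passed on the deposited scale, where 7.64% of genes passed for F1 minus F2, 3.13% for F1 minus F3 and 0.00875% for F2 minus F3. The SOD1 difference of F1 minus F3 was -0.14 (SE 0.12, limma, adjusted p = 0.572). With size factors SOD1 passed for F1 minus F3, at -0.21 (SE 0.05, limma, adjusted p = 0.00801), and for F1 minus F2, at -0.17 (SE 0.06, limma, adjusted p = 0.0412), beside 17.6% and 14.3% of all genes. SOD2 passed for F1 minus F3, at -0.17 (limma, adjusted p = 0.042), but not for F1 minus F2 (limma, adjusted p = 0.107). The difference in NFE2L2 between F1 and F3 was 0.21 on the deposited scale (limma, adjusted p = 0.475) and 0.15 with size factors (limma, adjusted p = 0.419), so a change between generations was not shown. No member passed for F2 minus F3 on either scale, beside 0.157% of all genes with size factors.

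Other genes of the redox network were read from 8 lists holding 114 genes. On the deposited scale 0 of 95 tested in F1, 0 of 96 in F2 and 0 of 95 in F3 passed (limma). At an unadjusted p-value under 0.05, 3 were lower and 2 higher in F1, 13 lower and 0 higher in F2, and 3 lower and 13 higher in F3. These are 5.26%, 13.5% and 16.8% of the genes tested from the lists, beside 13.6%, 11.7% and 13.1% of all genes, and in F2 75.5% of all genes lay lower in sGC on this scale. With size factors 12 of 95 were lower and 4 higher in F1 (12.6% and 4.21%, against 8.86% and 8.47% of all genes), and 0 passed in F2 and F3. All values of genes below that "passed" are with size factors, and none of them passed on the deposited scale.

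Among other peroxiredoxins in F1, PRDX3, the thioredoxin-dependent enzyme of mitochondria, and PRDX4, that of the endoplasmic reticulum, passed as lower, 2 of 12 tested genes of their list. PRDX4 had 863 ± 175 (SD, n = 5) normalized counts in Veh animals against 718 ± 63.1 (SD, n = 5) in sGC, with a log2 fold difference of -0.25 on the deposited scale (limma, adjusted p = 0.454) and -0.31 with size factors (limma, adjusted p = 0.0107). PRDX3 had -0.10 and -0.16 (limma, adjusted p = 0.791 and 0.0207). PRDX6, which uses glutathione, had a log2 fold difference of -0.02 with size factors, and SESN2, a stress-induced sestrin, had the largest positive statistic of the list at 0.20, and neither passed.

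The thioredoxin and glutaredoxin list had 4 of 14 genes that passed as lower in F1 and 0 as higher, with a median log2 fold difference of -0.12 with size factors, against 0.00 for all genes. They were MSRA, which repairs oxidised methionine, GLRX2, a mitochondrial glutaredoxin, TXNL1, a thioredoxin-like protein, and PARK7 (DJ-1), a redox sensor. MSRA had 838 ± 71.7 (SD, n = 5) normalized counts in Veh animals against 677 ± 36.5 (SD, n = 5) in sGC without overlap of the groups on the deposited scale, a log2 fold difference of -0.31 (limma, adjusted p = 0.227) and -0.37 with size factors (limma, adjusted p = 0.00573). On the deposited scale 0.253% of all genes lay lower in sGC without overlap. TXNIP, the inhibitor of thioredoxin, had the largest positive statistic in F1 and F3, with log2 fold differences of 0.38 and 0.32 (limma, adjusted p = 0.474 and 0.177). Its F2 difference had the opposite sign, at -0.32 (limma, adjusted p = 0.447), and -0.24 with size factors. In F2 and F3 no gene of this list passed, and GLRX5 had the largest negative statistic in both, at -0.24 and -0.04.

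In the glutathione list, 1 of 17 genes passed in F1. It was GSTA4, a transferase for lipid peroxidation products, with 3537 ± 410 (SD, n = 5) normalized counts in Veh animals against 2968 ± 170 (SD, n = 5) in sGC, whose groups did not overlap on the deposited scale (log2 fold difference -0.25, limma, adjusted p = 0.326, and -0.31 with size factors, limma, adjusted p = 0.00383). GSTA4 had the largest negative statistic of its list also in F2, at -0.25 (limma, adjusted p = 0.282), and the largest positive one in F3, at 0.08 (limma, adjusted p = 0.188). SLC7A11, the cystine importer, had 1186 ± 201 (SD, n = 5) in Veh animals against 1616 ± 830 (SD, n = 5) in sGC in F1 (limma, adjusted p = 0.494). Related transferases can share reads, and how such reads were counted is not given in the sources used here, so their values are uncertain.

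Among regulators of NFE2L2, the repressor BACH1, which competes with NFE2L2 for its binding sites, had the largest statistic in F1. It had 220 ± 36.8 (SD, n = 5) normalized counts in F1 Veh animals against 333 ± 30.1 (SD, n = 5) in sGC without overlap of the groups, a log2 fold difference of 0.61 with a standard error of 0.15 that narrowly missed the threshold (limma, adjusted p = 0.0526). On the deposited scale 1.79% of all genes lay higher in sGC without overlap. With size factors it was 0.55 (limma, adjusted p = 0.00135), and its relative BACH2 passed as higher at 0.40 (limma, adjusted p = 0.0156), as did the kinase GSK3B at 0.11 (limma, adjusted p = 0.0429). RBX1, a subunit of the ligase that works with KEAP1, passed as lower at -0.32 (limma, adjusted p = 0.00631). KEAP1 itself had 1079 ± 125 (SD, n = 5) and 1101 ± 126 (SD, n = 5) in F1, a log2 fold difference of 0.03 (limma, adjusted p = 0.945), and -0.03 with size factors. In F2 BACH2 was lower in sGC without overlap (as were 2.31% of all genes) at -0.27 (limma, adjusted p = 0.36), the opposite sign to F1, but with size factors its groups overlapped, at a log2 fold difference of -0.20, and no regulator passed in F2 or F3.

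Of the other NFE2L2 target genes, 2 of 13 passed in F1, both lower. NQO1, a quinone reductase often used as a readout of NFE2L2, had 2154 ± 450 (SD, n = 5) normalized counts in Veh animals against 1884 ± 82.6 (SD, n = 5) in sGC, with a log2 fold difference of -0.17 (limma, adjusted p = 0.623) and -0.23 with size factors (limma, adjusted p = 0.0279). BLVRB, a biliverdin reductase, had -0.11 and -0.17 (limma, adjusted p = 0.783 and 0.0426). HMOX1, heme oxygenase 1, had a log2 fold difference of -0.02 on the deposited scale and -0.08 with size factors (limma, adjusted p = 0.967 and 0.328). In F2 the ferritin heavy chain Fth1 had the largest negative statistic, at -0.26 (limma, adjusted p = 0.272), and in F3 EPHX1 had the largest positive one, at 0.12 (limma, adjusted p = 0.177).

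The remaining lists held 1 passing gene each in F1. TALDO1, of the pentose phosphate pathway that supplies NADPH, passed as lower at -0.14 (limma, adjusted p = 0.0323), as did Maob, a monoamine oxidase that produces hydrogen peroxide, at -0.25 (limma, adjusted p = 0.0258). LRP8, a receptor for selenoprotein P, passed as higher at 0.18 (limma, adjusted p = 0.0318). SEPP1, selenoprotein P, which carries selenium to the brain, did not pass in any generation. It had log2 fold differences of 0.28 in F1, -0.32 in F2 and 0.15 in F3 on the deposited scale (limma, adjusted p = 0.383, 0.36 and 0.219).

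**Figure D4:**
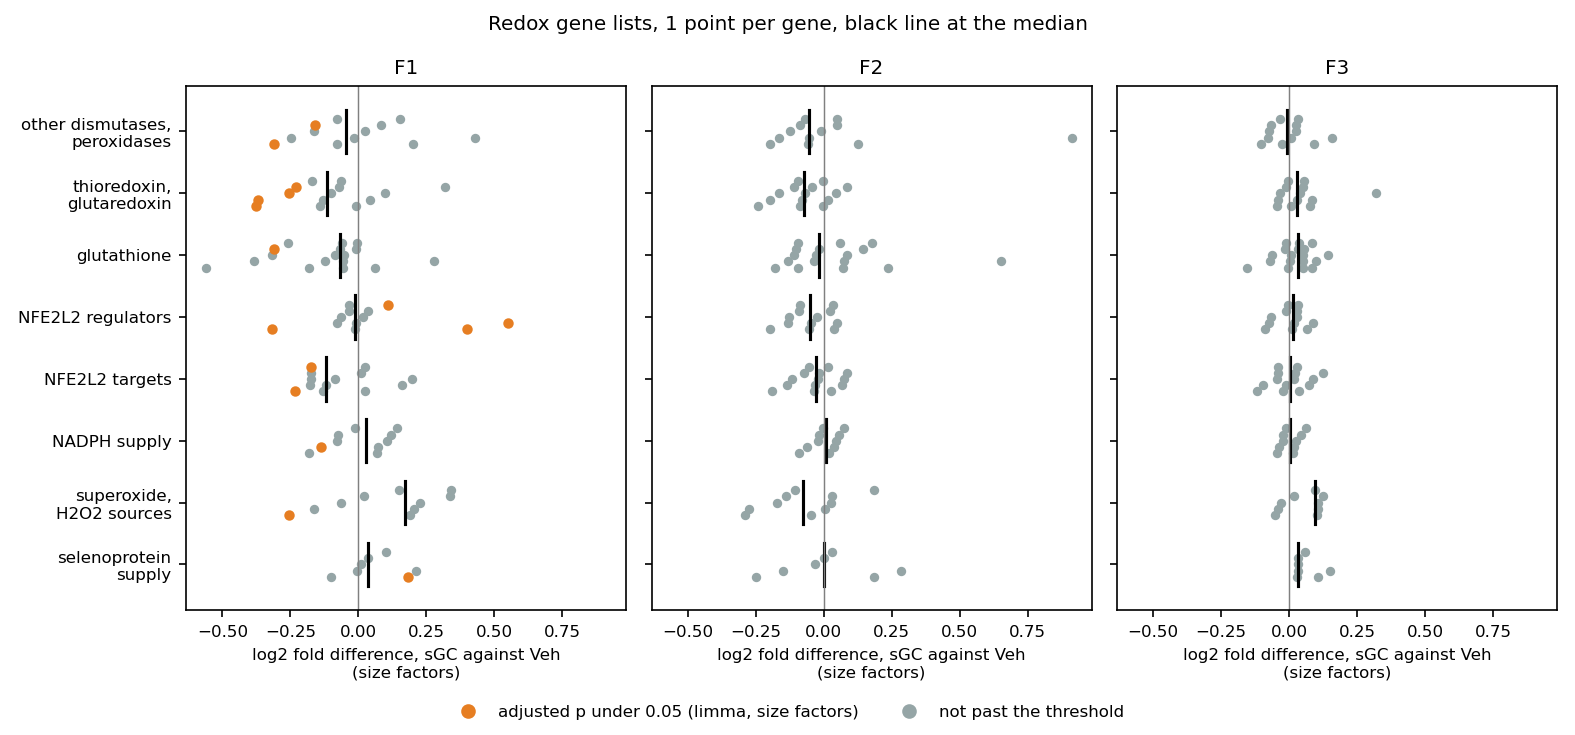
Log2 fold difference of sGC against Veh with size factors (horizontal axis) for genes of 8 redox lists in F1, F2 and F3, 1 point per gene, with a black line at the median of each list. The 16 genes past the threshold (orange) are all in F1, 12 of them lower and 4 higher in sGC, with BACH1 farthest to the right among them at 0.55.

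The members did not vary as 1 block. On log2 values with size factors, centred on the mean of each generation and treatment, NFE2L2 and PRDX1 had a Pearson correlation of 0.69 over 32 animals, and 0.16 in F1, 0.90 in F2 and 0.47 in F3. CAT and NFE2L2 had 0.59 over 32 animals, with 0.57, 0.72 and 0.31 in the generations. SOD1 and SOD2 had 0.25 over 32 animals, with 0.00 in F1, 0.25 in F2 and 0.83 in F3. NFE2L2 and SOD1 had 0.00 over 32 animals, but with signs that differed between generations, at -0.57 in F1, 0.26 in F2 and 0.11 in F3. These values share libraries and their normalization, and are descriptions only.

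The genes whose pattern over the 32 animals was most like the mean of the 5 members measured in all generations were CYBB, at a Pearson correlation of 0.89, PON2 at 0.86, and NPC2, ALDH9A1 and CD164 at 0.85 each, among 11424 genes with a median of 0.01. The mean was taken without bringing the members to equal spread, so the more variable members weigh more in it. In F2, for example, the within-group SD with size factors was 0.238 for NFE2L2 and 0.0667 for SOD1. CYBB is the catalytic subunit of the phagocyte NADPH oxidase, PON2 an intracellular paraoxonase and NPC2 a lysosomal cholesterol carrier. CYBB did not pass in F1, with 90.4 ± 22.7 (SD, n = 5) normalized counts in Veh animals against 111 ± 28.2 (SD, n = 5) in sGC (limma, adjusted p = 0.586).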

How the data were processed

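RNA from PVN punches was sequenced from poly(A)-enriched libraries. The authors aligned reads to cavPor3 (TopHat2 is named in the submitters' processing notes), counted them on genes, corrected the F3 batches, normalized by residuals with RUVSeq and deposited values rounded to whole numbers. These deposited values were treated as a score (normalized counts), not raw reads, so no count test was run and precision is set by the number of animals. Columns with the authors' own fold changes, test statistics and p-values from edgeR were not used.

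The limma fits (version 3.58.1, R 4.3.3) kept the generations apart (eBayes with trend, log2(value + 1), genes with a mean of at least 10, Benjamini-Hochberg over all genes, threshold 0.05), Veh against sGC by label. Differences between generations were interaction terms in 1 fit. Alternatives were median-of-ratios size factors, sample totals, a pseudocount of 5, a mean of at least 50, no filter, removed directions as covariates, batch and each animal left out. Size factors with removed directions or with animals left out, and ratios of members, were chosen after seeing the data.

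The members and lists were chosen with earlier results of these data known. Named genes were all members and, per list and generation, those past the threshold and those with the largest positive and negative statistic, of which a selection is given. Genes that passed with size factors alone, PRDX6, KEAP1 and genes without overlap are named outside that rule, after their values were seen. The 2 re-sequenced F3 Veh libraries were not analysed here. Sequences were not used here. On simulated data with 200 genes changed by a log2 fold difference of 1, the F1 test (11867 genes) recovered 90.5%, that of F2 (11957 genes) 88.5% and that of F3 (11855 genes) 97.0%, with 6.22%, 4.32% and 5.83% false calls.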

Additional observations from a re-analysis of the deposited data

How the results depend on the processing

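Numbers of animals and the unequal sample scale limit the precision in F1 and F2. Genes under the threshold in F1 (78 on the deposited scale) were 2058 with size factors, 1943 with sample totals and 1345 with size factors and the removed direction as a covariate. In F2 (0) a mean of at least 50 gave 17. In F3 (6) removed directions as covariates gave 1, with and without size factors, the first batch alone 2 and batch as a covariate 3. With size factors the differences of F1 minus F2, F1 minus F3 and F2 minus F3 had 1635, 2013 and 18 genes. Leaving out 1 animal gave 15 (without Veh replicate SGM15) to 474 (without Veh replicate SGM7) genes in F1 and 904 to 2021 with size factors, 0 to 114 in F2 (the most without Veh replicate SGM28), 1 to 15 in F3 and 1 to 17 with size factors, and 439 to 2447, 193 to 1281 and 0 to 18 for these differences. The cause of these shifts was not tested.

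No member passed on the deposited scale under any alternative filter, pseudocount, covariate, batch or left-out animal. The signs of some small differences turned. With size factors the log2 fold difference of CAT was -0.018 in F1, and -0.012 with totals. In F2, size factors gave 0.0045 for CAT and 0.067 for NFE2L2, and totals 0.0012 for SOD2, 0.014 for CAT and 0.076 for NFE2L2. Adding the removed direction as a covariate gave the same estimates. That direction was taken from values centred within each group, so it cannot alter them and is not a separate check of sign. In F3, the first batch alone and batch as a covariate, which give the same estimates here, gave -0.013 for SOD1, -0.0088 for SOD2 and -0.021 for CAT. Between generations, size factors gave, for F1 minus F2, -0.022 for CAT and -0.058 for PRDX1, for F1 minus F3, -0.022 for CAT, and for F2 minus F3, 0.00033 for CAT and 0.071 for NFE2L2. With 1 animal left out, ranges were taken over both scales together. Those that crossed 0 in F1 were -0.092 to 0.11 for CAT and -0.21 to 0.00088 for PRDX1, which crossed on the deposited scale alone. In F2 they were -0.15 to 0.0052 for SOD1, -0.13 to 0.016 for SOD2, -0.15 to 0.053 for CAT and -0.096 to 0.16 for NFE2L2. Of these, SOD1, SOD2 and CAT crossed 0 with size factors alone. In F3 they were -0.0022 to 0.026 for SOD1, -0.013 to 0.025 for CAT and -0.033 to 0.021 for NFE2L2. For the differences between generations animals were left out on the deposited scale alone, and the ranges that crossed 0 were, for F1 minus F2, -0.11 to 0.065 for SOD1, -0.079 to 0.063 for SOD2 and -0.022 to 0.17 for PRDX1, for F1 minus F3 -0.040 to 0.11 for CAT, and for F2 minus F3 -0.090 to 0.11 for NFE2L2.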
